A study of Rattus norvegicus with 26 samples.

Results

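The genes described here are 10 members of the cadherin and catenin families that make or mark cell-cell junctions: *Cdh1*, *Cdh2*, *Cdh3*, *Cdh4*, *Cdh6*, *Cdh11*, *Cdh13*, *Cdh17*, *Ctnna1* and *Ctnnd1*. Each gene was read from the brightest array probe that carries its symbol. Of the 10 genes, 9 had such a probe among the 41012 gene probes of the array, and 8 of these were tested. *Cdh4* had no probe under its symbol and was left out, and *Cdh6* was not well above background on any array. The RNA came from 2 lines of rat multipotent adult progenitor cells (rMAPCs), Cl19 and 3c3. Both are Oct4-expressing clones grown from the bone marrow of female Fischer rats, and each line is therefore a single clone. The donor age is labelled 3 weeks for Cl19 and E18, the usual notation for embryonic day 18, for 3c3, so that line and donor age cannot be told apart. Cells of each line were harvested before (d0) and on d2, d4 and d6 of culture with TGFβ1 and PDGF-BB. For this culture the cells were plated in serum-free medium, according to the study's methods. Each line and day has 3 arrays. All later days carry both factors and this plating and medium. The effects of one factor, of plating and medium, and of time in culture therefore cannot be told apart. Primary smooth muscle cell (SMC) RNA was hybridized on 2 arrays. Its labels call it commercial rat aortic RNA, whereas the study's methods name another supplier and its legend cultured aortic SMCs (RAOSMCs).

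Classical cadherins are transmembrane proteins that bind the same cadherin on a neighbouring cell and are linked to actin inside the cell through catenins. E-cadherin (*Cdh1*) is the cadherin of most epithelia, and N-cadherin (*Cdh2*) and OB-cadherin (*Cdh11*) are those of many mesenchymal cells. A loss of E-cadherin with a gain of N-cadherin is called a cadherin switch and is known from epithelial-mesenchymal transitions, in which transcription factors of the SNAI and ZEB families repress *Cdh1*. Vascular SMCs are known to carry N-cadherin, T-cadherin (*Cdh13*) and OB-cadherin rather than E-cadherin.

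The probes are shown because the level of a gene here is the brightness of 1 short stretch of its transcript. Each is a 60-base oligonucleotide, given 5′ to 3′ as it stands in the scanner files, with its rn4 position according to the array annotation. Only the first 30 bases are printed, except for *Cdh3* and *Ctnnd1*, whose probes are printed whole because their positions span more than the probe's length and so lie across an intron. Whether the other probes lie in coding or untranslated sequence was not analysed here.
*Cdh1*, chr19:36511853-36511912, plus strand: ttgctgtactcacataattttggaagcaaa
*Cdh2*, chr18:8049328-8049387, minus strand: ctttcgttatgggtaaagtatttacaaaac
*Cdh3*, chr19:36390903-36392983, plus strand: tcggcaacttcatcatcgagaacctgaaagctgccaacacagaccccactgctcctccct
*Cdh13*, chr19:49566285-49566344, plus strand: actacaacctgcccatcatggtgacggatt
*Cdh17*, chr5:26081776-26081835, plus strand: atttccccagcaaatattccaagccaacgt
*Ctnna1*, chr18:27768381-27768440, plus strand: gctgtgtcatggaaaatgaaagcccccgag
*Ctnnd1*, chr3:67817580-67818096, minus strand: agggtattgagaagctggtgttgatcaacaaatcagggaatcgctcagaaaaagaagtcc
The *Cdh1* and *Cdh2* probes are poor in G and C (36.7% and 35.0%), and the *Cdh3* and *Cdh13* probes are richer (55.0% each). Levels are therefore compared between samples for 1 probe and never between probes.

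Between 43.2% and 61.4% of gene features were well above background on the 26 arrays, and no feature was saturated. The 4 days of each replicate of a line lay on 1 slide, so that changes over time lie within slides, while Cl19, 3c3 and primary SMC each had a scan day of their own (3 in all), and for levels line and scan day cannot be told apart. The slide of 3c3 replicate 3 had the lowest shares of any rMAPC slide (43.2% to 51.8%). The array labelled Cl19 d2 replicate 1 lay nearer to the 3c3 arrays of d2 (differing by 0.382 to 0.538 log2 units, as a root mean square) than to the other Cl19 arrays of d2 (0.876 and 0.917). Called changes of members from d0 to d2 in Cl19 are given with and without it. On d0 all 7 primitive endoderm-type progenitor markers, among them *Pou5f1* (Oct4), were well above background in both lines. The *Pou5f1* level fell by 9.15 log2 units in Cl19 and by 4.11 in 3c3 from d0 to d6. By the limma test given below, all 7 markers were lower on d6 in Cl19 and 4 of 7 in 3c3. Over all tested probes, 30.3% (Cl19) and 28.6% (3c3) were lower. On d6, 6 of the 7 were well above background on all Cl19 arrays and all 7 on all 3c3 arrays. Of 7 smooth muscle markers with a probe, 5 rose in each line (*Tagln*, *Cnn1*, *Smtn*, *Lmod1* and *Des*), beside 22.0% (Cl19) and 19.7% (3c3) of all tested probes. The other 2, *Synpo2* and *Mylk*, did not pass the threshold, and *Myh11* had no probe. All 7 were well above background on the primary SMC arrays. In bulk RNA, fewer cells of a type and less RNA per cell cannot be told apart.

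The first question was which members changed during differentiation. In Cl19, the d6 level was higher than that of d0 for 4 of the 8 tested members, *Cdh1*, *Cdh3*, *Ctnna1* and *Ctnnd1*, and lower for *Cdh17*, by limma with a Benjamini-Hochberg adjusted p below 0.05 over the 24442 tested probes. Over all tested probes 52.2% were past this threshold, 22.0% higher and 30.3% lower. In 3c3, 5 members were higher (*Cdh1*, *Cdh3*, *Cdh13*, *Ctnna1* and *Ctnnd1*) and none was lower, where 48.2% of all tested probes were past it, 19.7% higher and 28.6% lower. The counts of 5 in each line thus lay near what the background share gives for 8 probes, whereas 4 and 5 higher members stood beside a background of about 1 probe in 5. Over the 8 members the median d6 change was 1.32 (Cl19) and 1.33 (3c3) log2 units, against -0.20 and -0.21 over all tested probes. The members were chosen with earlier results of these data known, so that neither contrast with the background is a test of the family.

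**Figure D1:**
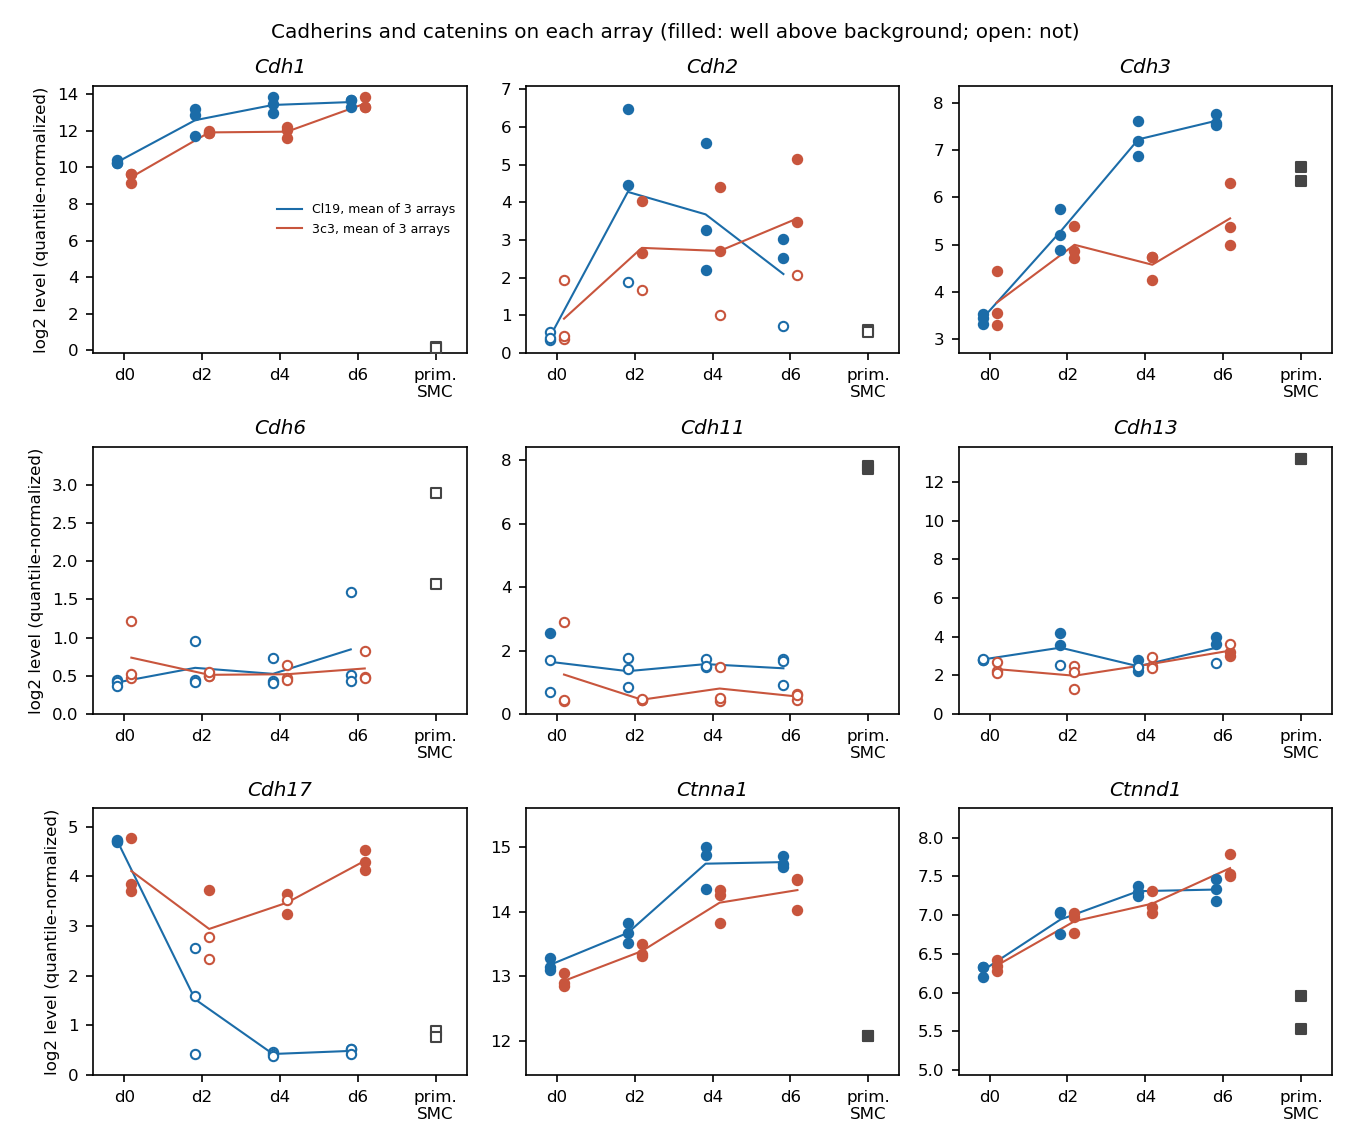
The log2 level (quantile-normalized, vertical axis, a scale of its own for each gene) of the 9 members with a probe on each array by day, with Cl19 in blue, 3c3 in red, primary SMC RNA as grey squares and lines through the means of 3 arrays. Filled points were well above background and open points were not; *Cdh1*, *Ctnna1* and *Ctnnd1* climb in both lines, *Cdh17* is open on every Cl19 array after d0, and *Cdh11* and *Cdh13* are bright on the primary SMC arrays.

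Of the members, *Cdh1* rose the most in 3c3 and, after *Cdh3*, the most in Cl19. The Cl19 levels were 10.24, 10.39 and 10.26 log2 units on d0, 11.70, 13.20 and 12.85 on d2, 12.96, 13.85 and 13.45 on d4, and 13.31, 13.71 and 13.71 on d6. In 3c3 they were 9.13, 9.62 and 9.66 on d0, 11.91, 11.98 and 11.87 on d2, 12.04, 11.64 and 12.19 on d4, and 13.33, 13.86 and 13.28 on d6. Every array of d2 and later lay above every d0 array of its line. The d6 change of *Cdh1* was 3.28 log2 units (SE 0.29, 9.71-fold, adjusted p = 2.13e-08) in Cl19 and 4.02 (SE 0.29, 16.2-fold, adjusted p = 2.91e-09) in 3c3. Slide by slide, it ran from 3.07 to 3.45 (Cl19) and from 3.62 to 4.23 (3c3). Most of the rise was there on d2, with a change of 2.29 (adjusted p = 1.13e-05) in Cl19, or 2.73 without replicate 1, and 2.45 (adjusted p = 6.01e-06) in 3c3. From d4 to d6 *Cdh1* rose further in 3c3, by 1.53 (adjusted p = 0.00271), whereas in Cl19 the step was 0.16 (adjusted p = 0.9). The E-cadherin transcript thus increased in a culture in which smooth muscle markers rose.

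*Cdh2*, which encodes N-cadherin, ranged from below the limit of detection to 6.49 log2 units (Cl19 d2 replicate 2). It was read from 1 probe printed on 10 features and exceeded background clearly on 13 of 26 arrays. On d0 no array of either line measured it, with levels of 0.35, 0.56 and 0.39 in Cl19 and 0.36, 1.93 and 0.44 in 3c3. In Cl19 the levels were 1.88, 6.49 and 4.47 on d2, where replicate 1 was not well above background, 3.26, 5.58 and 2.20 on d4, and 0.73, 2.53 and 3.03 on d6, where again replicate 1 was not. In 3c3 they were 2.65, 4.04 and 1.68 on d2, 2.70, 4.41 and 1.01 on d4, and 3.49, 5.16 and 2.07 on d6, with replicate 3 not well above background on any of these days. The replicates thus spread over several log2 units on a day, and replicate 2 was the highest in 3c3 on all 3 days.

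With d0 raised to the limit of detection, the d2 level of *Cdh2* in Cl19 was 3.78-fold that of d0. That fold is no strict bound, since replicate 1 of d2 was not well above background. The fitted change was 3.84 log2 units (SE 1.097, adjusted p = 0.0152), or 5.04 without replicate 1. This call was lost without Cl19 replicate 2 (2.80, adjusted p = 0.156), without replicate 3 (3.73, adjusted p = 0.115), with normexp background correction (adjusted p = 0.0572) and with a floor at the lowest measured signal (adjusted p = 0.0671). On d4 the change in Cl19 was 3.25 (at least 2.50-fold, adjusted p = 0.0199), and on d6 it was 1.66 (adjusted p = 0.219), with no bound above 1-fold. In 3c3 the d6 change was 2.66 (adjusted p = 0.0519), and with the replicate as a block its adjusted p was 0.00411. With d0 raised to the limit its fold was 1.87, again no strict bound, since replicate 3 of d6 was not well above background. The fall of *Cdh2* after d4 in Cl19 did not pass the test (-1.58 from d4 to d6, adjusted p = 0.519). *Cdh1* and *Cdh2* therefore did not move in opposite directions on d2 in Cl19, since both were higher than on d0.

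*Cdh3* encodes P-cadherin, a classical cadherin of basal epithelia and placenta. In Cl19 its levels were 3.54, 3.33 and 3.44 on d0, 4.88, 5.20 and 5.76 on d2, 6.87, 7.20 and 7.62 on d4, and 7.76, 7.53 and 7.58 on d6. In 3c3 they were 3.30, 3.55 and 4.45 on d0, 4.87, 4.72 and 5.40 on d2, 4.74, 4.24 and 4.74 on d4, and 6.31, 4.99 and 5.36 on d6. All arrays measured *Cdh3*, and on d4 and d6 all Cl19 arrays lay above all 3c3 arrays. The d6 change was 4.19 log2 units (SE 0.32, 18.2-fold, adjusted p = 3.41e-09) in Cl19, the largest of any member, and 1.79 (SE 0.32, 3.45-fold, adjusted p = 1.52e-04) in 3c3. Without 3c3 replicate 1 the latter was 1.18 (adjusted p = 0.0125). On d2 the changes were 1.84 (adjusted p = 3.34e-04; 2.04 without replicate 1) in Cl19 and 1.23 (adjusted p = 0.0111) in 3c3, and the lines overlapped on d2. The 3c3 call of *Cdh3* on d2 was lost without 3c3 replicate 1 (1.06, adjusted p = 0.0674), with normexp background correction (0.29, adjusted p = 0.157) and in a fit of 3c3 alone (adjusted p = 0.0552).

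*Cdh4* encodes R-cadherin. The array held 3 probes named LOC311710 and described as similar to cadherin 4; they lie outside the naming rule, were picked after their values were seen and are given apart from the members. Their positions are chr3:168831904-168831963, chr3:168976411-168976470 and chr3:168964758-168968783, and the last lies across an intron.
LOC311710, first of these positions, plus strand: cgtggacaccaaagggacgcagtatgagac
LOC311710, last of these positions, plus strand: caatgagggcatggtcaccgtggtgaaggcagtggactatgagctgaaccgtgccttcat
In Cl19 the first probe rose from 3.13, 2.94 and 2.94 on d0 to 7.19, 7.43 and 7.89 on d6, a change of 4.50 (SE 0.40, 22.6-fold, adjusted p = 1.94e-08). In 3c3 it was not well above background on d0 and reached 5.64, 3.98 and 5.53 on d6, at least 5.20-fold (change 2.86, adjusted p = 9.04e-06). The second probe, measured on 2 of 3 d0 arrays of each line, changed by 3.88 (adjusted p = 1.66e-07) in Cl19 and 2.13 (adjusted p = 2.4e-04) in 3c3. The last and dimmest changed by 3.58 in Cl19 (at least 3.08-fold, adjusted p = 3.02e-04) and by 0.75 in 3c3 (adjusted p = 0.416), where 1 of 3 arrays of d6 measured it. All 3 probes thus had a larger change in Cl19, a difference past the threshold for the second (1.74, adjusted p = 0.0412) and not for the first (1.64, adjusted p = 0.0512) or the last (2.83, adjusted p = 0.0613). On the primary SMC arrays the probes disagreed, since the second was well above background (5.35 and 5.83) and the other two were not.

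*Cdh6* (K-cadherin, of kidney and neural crest) gave levels of 0.37 to 1.60 on the rMAPC arrays and 2.89 and 1.71 on the primary SMC arrays, all below the limit. *Cdh11*, known from mesenchyme and bone-forming cells, was well above background on 1 of 24 rMAPC arrays (Cl19 d0 replicate 3, 2.55) and on none of the later days. Its rMAPC levels lay between 0.41 and 2.89, with no order that could be read. Its other 3 probes were not well above background on any rMAPC array, but 1 of them was not on the primary SMC arrays either and so cannot show absence.

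*Cdh13* encodes T-cadherin, which is held in the membrane by a lipid anchor and lacks the part that binds catenins. In Cl19 its levels were 2.85, 2.79 and 2.82 on d0 and 2.65, 4.00 and 3.64 on d6, and replicate 1 was not well above background on any day. In 3c3 they were 2.21, 2.10 and 2.67 on d0, none well above background, and 3.02, 3.23 and 3.60 on d6, of which replicates 1 and 2 were. The 3c3 change was 0.96 (SE 0.37, adjusted p = 0.0388). It lost its call without any of the 3c3 replicates (adjusted p = 0.0856 to 0.181), and under 5 of 9 other alternatives (changes of 0.10 to 1.36 over the 9). With d0 raised to the limit its fold was 1.53, no strict bound, since not all d6 arrays were well above background. The Cl19 change was 0.61 (adjusted p = 0.181). The other *Cdh13* probe gave a d6 change of 0.97 (SE 0.61, adjusted p = 0.206) in 3c3 and 0.84 (adjusted p = 0.265) in Cl19, so it did not pass the threshold in either line.

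*Cdh17* encodes LI-cadherin, a cadherin of intestine and embryonic liver with a short cytoplasmic part that does not bind catenins. In Cl19 its levels were 4.69, 4.73 and 4.71 on d0, and it was not well above background on any later array, with 2.57, 1.59 and 0.41 on d2, 0.46, 0.43 and 0.38 on d4, and 0.53, 0.52 and 0.41 on d6. In 3c3 the levels were 4.78, 3.85 and 3.70 on d0, 3.72, 2.33 and 2.77 on d2, where replicates 2 and 3 were not well above background, 3.64, 3.25 and 3.52 on d4, where replicate 3 was not, and 4.28, 4.13 and 4.53 on d6. *Cdh17* thus was lost from the measured range in Cl19 by d2 and was back in its d0 range in 3c3 by d6. The d6 level in Cl19 was at least 6.87-fold lower than that of d0 (fitted change -4.23, SE 0.39, adjusted p = 3.17e-08). On d2 it was at least 5.86-fold lower (fitted change -3.19, adjusted p = 6.51e-06; -3.71 without replicate 1). In 3c3 the d2 change was -1.17 (SE 0.39, adjusted p = 0.0418) and the d6 change 0.21 (adjusted p = 0.698). The 3c3 call on d2 was lost without each of the 3c3 replicates (adjusted p = 0.0909 to 0.212) and without Cl19 replicate 2 (adjusted p = 0.0776). It was also lost under 6 of 9 other alternatives (changes of -1.35 to -0.15 over the 9). The second *Cdh17* probe, at chr5:26099099-26099158, gave a d6 change of -3.87 (at least 5.91-fold lower, adjusted p = 0.0013) in Cl19 and 0.17 (adjusted p = 0.899) in 3c3.

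**Figure D2:**
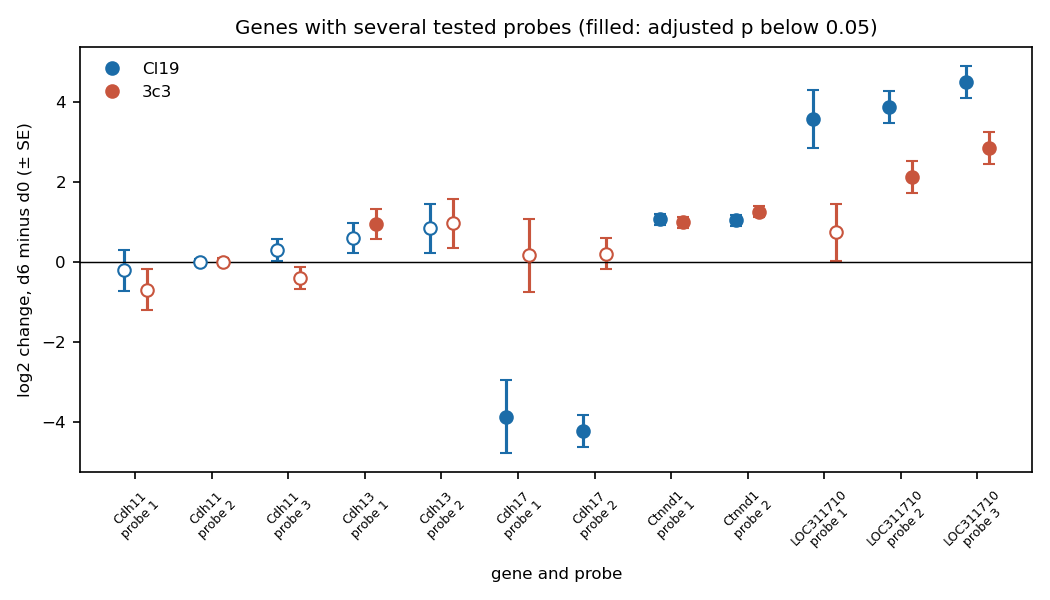
Change from d0 to d6 (log2 units, vertical axis) with its SE for each tested probe of the members that had several, and for the probes described as similar to cadherin 4 (LOC311710, plotted as probes 3, 2 and 1 in the order of the text), in Cl19 (blue) and 3c3 (red); filled points had an adjusted p below 0.05. Both *Cdh17* probes lie near -4 in Cl19 and near 0 in 3c3, and both *Ctnnd1* probes lie near 1 in both lines.

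The catenins of the list link cadherins to the cell. *Ctnna1* encodes α-catenin, which joins the cadherin complex to actin. Its Cl19 levels were 13.28, 13.10 and 13.15 on d0, 13.51, 13.68 and 13.82 on d2, 14.88, 14.34 and 15.01 on d4, and 14.87, 14.74 and 14.69 on d6. In 3c3 they were 12.84, 12.89 and 13.05 on d0, 13.35, 13.31 and 13.50 on d2, 13.83, 14.26 and 14.33 on d4, and 14.02, 14.50 and 14.48 on d6. The groups of d0 and d2 did not overlap in either line, nor did those of d2 and d4. The d6 change was 1.59 (SE 0.17, 3.02-fold, adjusted p = 2.4e-07) in Cl19 and 1.41 (SE 0.17, 2.65-fold, adjusted p = 1.9e-06) in 3c3. On d2 it was 0.50 (adjusted p = 0.0434) in Cl19, or 0.58 without replicate 1, and 0.46 (adjusted p = 0.0689, and 0.0218 with the replicate as a block) in 3c3. The Cl19 call on d2 was lost without any single slide of that line (adjusted p = 0.0554 to 0.294), without 3c3 replicate 2 or 3 (adjusted p = 0.0637 and 0.0638), and without either primary SMC array (adjusted p = 0.0512).

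*Ctnnd1* encodes a catenin of the delta family, which binds the membrane-near part of cadherins and is known to slow their removal from the surface. In Cl19 its levels were 6.33, 6.20 and 6.32 on d0, 7.05, 7.03 and 6.76 on d2, 7.38, 7.25 and 7.30 on d4, and 7.34, 7.18 and 7.47 on d6. In 3c3 they were 6.35, 6.28 and 6.42 on d0, 6.97, 6.77 and 7.02 on d2, 7.10, 7.03 and 7.31 on d4, and 7.53, 7.51 and 7.78 on d6. Every later array lay above every d0 array of its line. The d6 change was 1.05 (SE 0.13, 2.07-fold, adjusted p = 2.15e-06) in Cl19 and 1.26 (SE 0.13, 2.39-fold, adjusted p = 3.66e-07) in 3c3. On d2 it was 0.66 (adjusted p = 0.00124; 0.61 without replicate 1) and 0.57 (adjusted p = 0.00475), and the latter call was lost without 3c3 replicate 1 (adjusted p = 0.0723) or 3 (adjusted p = 0.0506). The other *Ctnnd1* probe gave 1.07 and 0.99 on d6.

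The order of events was read from the steps between days. On d2, 6 of 8 members had changed in Cl19 (*Cdh1*, *Cdh2*, *Cdh3*, *Ctnna1* and *Ctnnd1* higher, *Cdh17* lower) beside 22.6% of all tested probes (11.2% higher and 11.5% lower), and 4 in 3c3 (*Cdh1*, *Cdh3* and *Ctnnd1* higher, *Cdh17* lower) beside 19.1% (9.80% higher and 9.27% lower). The Cl19 count ran from 4 to 6 over the replicates left out. The 3c3 count was 1 without replicate 1 and 2 without replicate 3. From d2 to d4, *Cdh1*, *Cdh3* and *Ctnna1* rose further in Cl19 (20.6% of all probes changed) and *Ctnna1* alone passed the test in 3c3 (8.71%). The Cl19 step of *Cdh1* was 0.83 (adjusted p = 0.0499), and without d2 replicate 1 the means were 13.03 on d2 and 13.42 on d4, with overlapping levels. From d4 to d6, no member passed limma's test in Cl19 (1 at an unadjusted p below 0.05, with 6.95% of all probes past the adjusted threshold), and *Cdh1* and *Ctnnd1* rose in 3c3 (10.5%). Over the whole course 6 members changed in each line by limma's F-test, beside 54.3% of all probes in Cl19 and 50% in 3c3. These were *Cdh1*, *Cdh3*, *Cdh17*, *Ctnna1* and *Ctnnd1* in both lines, with *Cdh2* in Cl19 (adjusted p = 0.0217; 3c3 0.202) and *Cdh13* in 3c3 (adjusted p = 0.0336; Cl19 0.0721).

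The second question was whether the lines differed. On d0 no member differed between Cl19 and 3c3 by limma (1 at an unadjusted p below 0.05, with 3.07% of all probes past the adjusted threshold). That member was *Cdh1*, which was 0.83 log2 units higher in Cl19 (adjusted p = 0.189) and passed the threshold when Cl19 replicate 1 was left out (adjusted p = 0.0437). The d6 change differed between the lines for 2 of 8 members, *Cdh3* and *Cdh17*, beside 17.4% of all probes. The *Cdh3* change was 2.40 larger in Cl19 (SE 0.46, adjusted p = 9.03e-04), and it was larger in every slide of Cl19 (4.14 to 4.23) than in any of 3c3 (0.91 to 3.01). The *Cdh17* change was 4.43 lower in Cl19 (-4.43, SE 0.55, adjusted p = 1.27e-05), with slide values of -4.30 to -4.16 in Cl19 and -0.49 to 0.83 in 3c3. For *Cdh1* the difference was -0.74 (SE 0.41, adjusted p = 0.271), for *Ctnna1* 0.19 (SE 0.24, adjusted p = 0.731) and for *Ctnnd1* -0.21 (SE 0.19, adjusted p = 0.56). On d2 no member's change differed by limma (1 at an unadjusted p below 0.05, with 0.323% of all probes past the adjusted threshold).

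**Figure D3:**
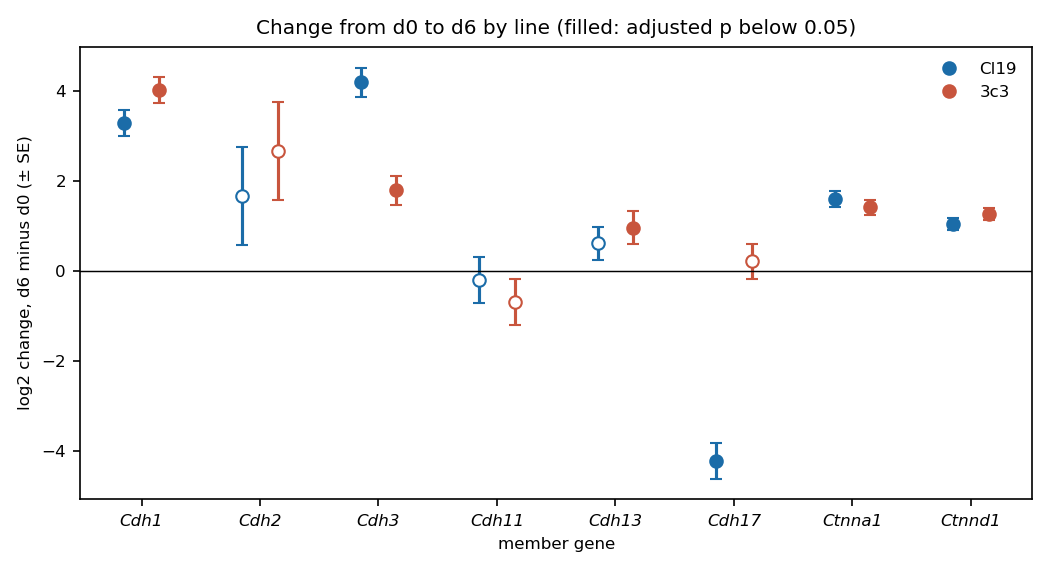
Change from d0 to d6 (log2 units, vertical axis) with its SE for the 8 tested members in Cl19 (blue) and 3c3 (red); filled points had an adjusted p below 0.05. *Cdh3* (4.19 against 1.79) and *Cdh17* (-4.23 against 0.21) are the members whose change differed between the lines, and *Cdh1* is high in both.

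The third question was how the members stood against primary SMC RNA. Between primary SMC and Cl19 d6, 6 of 8 members differed, 2 higher and 4 lower in primary SMC, beside 71.4% of all probes (32.8% higher and 38.6% lower). Between primary SMC and 3c3 d6 all 8 differed, 3 higher and 5 lower, beside 71.5% (33.4% higher and 38.1% lower). The first count lay near its background. The second was 6 without primary SMC replicate 1 or 2 or 3c3 replicate 2. Both comparisons share the 2 primary SMC arrays. *Cdh1* read 0.15 on both of these, not well above background, which is at least 894-fold below Cl19 d6 and at least 842-fold below 3c3 d6. On d0 it was already at least 92.1-fold (Cl19) and 51.9-fold (3c3) above the primary SMC level. The E-cadherin transcript thus moved away from the primary SMC level in both lines.

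*Cdh13* lay at 13.22 on both primary SMC arrays, 9.79 log2 units (SE 0.41, adjusted p = 6.85e-14) above Cl19 d6 and 9.94 (SE 0.41, adjusted p = 4.83e-14) above 3c3 d6, where 2 of 3 arrays of each line measured it. *Cdh11* lay at 7.82 and 7.72, at least 57.2-fold above Cl19 d6 and at least 30.8-fold above 3c3 d6. Its other probes disagreed on primary SMC, with means of 6.18 and 8.99, while the last read 0.75 and was not well above background on any array. *Cdh2* was not well above background on the primary SMC arrays (0.62 and 0.55). Its fitted difference from 3c3 d6 (-2.99, adjusted p = 0.0358) had no bound above 1-fold, and the call was lost without either primary SMC array (adjusted p = 0.106 and 0.114) and without 3c3 replicate 1 or 2 (adjusted p = 0.0864 and 0.122). A *Cdh2* level in primary SMCs was therefore not detectable with this probe, although N-cadherin is known from these cells.

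*Cdh3* lay at 6.64 and 6.36 on the primary SMC arrays, 1.12 log2 units below Cl19 d6 (adjusted p = 0.00963) and 0.95 above 3c3 d6 (adjusted p = 0.0256). The call against Cl19 was lost without primary SMC replicate 2 (adjusted p = 0.0762). That against 3c3 was lost without 3c3 replicate 2 (adjusted p = 0.132) and without primary SMC replicate 1 (adjusted p = 0.142) or 2 (adjusted p = 0.05), and it turned to -1.30 (adjusted p = 0.00605) in the authors' table without normalization. *Cdh17* read 0.88 and 0.76, not well above background, at least 1.46-fold below 3c3 d6 (adjusted p = 5.89e-07). *Ctnna1* (12.08 and 12.07) was 6.48-fold below Cl19 d6 and 4.80-fold below 3c3 d6, and *Ctnnd1* (5.95 and 5.53) was 3.00-fold and 3.64-fold below. These catenins were also lower on the primary SMC arrays than in either line on d0.

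Levels of the members across the 9 groups fell into a few orders. For *Cdh1* the groups ran from Cl19 d6 (13.58) over 3c3 d6 (13.49), Cl19 d4 (13.42), Cl19 d2 (12.58), 3c3 d4 (11.96) and 3c3 d2 (11.92), each overlapping its neighbour, to Cl19 d0 (10.30), 3c3 d0 (9.47) and primary SMC, which did not overlap with a neighbour. For *Ctnnd1*, 3c3 d6 (7.61) stood above Cl19 d6 (7.33) with no overlap, the d4 and d2 groups overlapped in turn, and primary SMC (5.74) was the lowest. For *Ctnna1*, both lines' d6 and d4 groups overlapped in turn, and below them Cl19 d2 (13.67), 3c3 d2 (13.39), Cl19 d0 (13.18), 3c3 d0 (12.93) and primary SMC (12.07) stood apart from each other. For *Cdh3*, Cl19 d6 (7.62) and d4 (7.23) overlapped, primary SMC (6.50) stood below them and above 3c3 d6 (5.55), and the remaining groups overlapped in turn.

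Over the 24 rMAPC arrays, the genes whose levels ran most like those of *Cdh1* were *Col5a1* (a fibrillar collagen chain, Pearson's r = 0.975), *Dsp* (desmoplakin, of desmosomes, 0.974) and *Spon2* (a secreted matrix protein, 0.971), out of 8860 probes of named genes that were well above background on all 24 arrays. For *Cdh2*, which was measured on only 13 of these arrays, they were *Oat* (ornithine aminotransferase, 0.854), *Svil* (supervillin, an actin-binding protein, 0.844) and *Smad1* (a BMP signal transducer, 0.822). The arrays share slides and the same time course, so that these values describe a shared course and carry no test.

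Other genes of the pathway were counted in lists chosen for their roles. Among 30 other cadherins and protocadherins, 25 had a probe and 14 were tested. In Cl19, 7 were higher and 3 lower on d6 (median change 0.87 log2 units), beside 52.2% of all tested probes past the threshold. In 3c3, 5 were higher and 3 lower (median -0.01), beside 48.2%. The medians over all probes are given above. *Pcdh7*, *Pcdh8* and *Pcdh1* encode protocadherins, which have cadherin repeats but no catenin-binding part. *Pcdh8* rose by 8.14 (at least 132-fold) in Cl19 and 3.32 (at least 2.58-fold) in 3c3, and *Pcdh7* by 8.06 (at least 74.5-fold) and 3.68. *Pcdh1* rose by 5.17 (at least 16.7-fold) in Cl19 and 1.95 in 3c3. Against the limit, the 3c3 folds of *Pcdh7* and *Pcdh1* were 3.10 and 1.56, no strict bounds, since not all d6 arrays measured these genes. The 3c3 call of *Pcdh1* (adjusted p = 0.035) was lost without 3c3 replicate 1 (adjusted p = 0.109) or 3 (adjusted p = 0.186) and without Cl19 replicate 2 (adjusted p = 0.0586). *Pcdh19*, a protocadherin known from brain and early embryo, fell by 5.73 in Cl19 and by 3.83 in 3c3. *Cdh23*, a cadherin of hair-cell tip links, fell by 3.90 (at least 8.28-fold) and by 2.30 (at least 1.69-fold) to levels not well above background on any d6 array, and the latter call (adjusted p = 0.0184) was lost without 3c3 replicate 1 (adjusted p = 0.0746) or 3 (adjusted p = 0.058).

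Among 29 adherens junction partners, 23 were tested. In Cl19, 11 were higher and 4 lower (median 0.31), beside 52.2% of all tested probes past the threshold. In 3c3, 12 were higher and 5 lower (median 0.47), beside 48.2%. *Actn1* (α-actinin, an actin crosslinker) rose by 2.64 and 1.92, *Ctnnal1* (a relative of α-catenin) by 2.50 and 1.15 (a 3c3 call lost without any 3c3 replicate, adjusted p = 0.0596 to 0.136), and *Vcl* (vinculin, which binds α-catenin under tension) by 1.81 and 1.75 in Cl19 and 3c3. *Ptprm*, a phosphatase that binds cadherin complexes, fell by 4.10 in Cl19 (at least 5.83-fold) and by 1.33 in 3c3, where 2 of 3 d6 arrays measured it, the latter a call lost without any 3c3 replicate (adjusted p = 0.0787 to 0.152). *Pkp4*, an armadillo protein of junctions, fell by 1.03 (a call lost without Cl19 replicate 2, adjusted p = 0.0504) and by 2.66, and *Pvrl1* (nectin 1) fell by 1.55 and by 0.97, the latter a call lost without 3c3 replicate 1 (adjusted p = 0.0829). The catenin genes of this list *Ctnnb1* (1.20 and 0.63) and *Jup* (1.09 and 1.21), named after their values were seen, were higher in both lines.

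**Figure D4:**
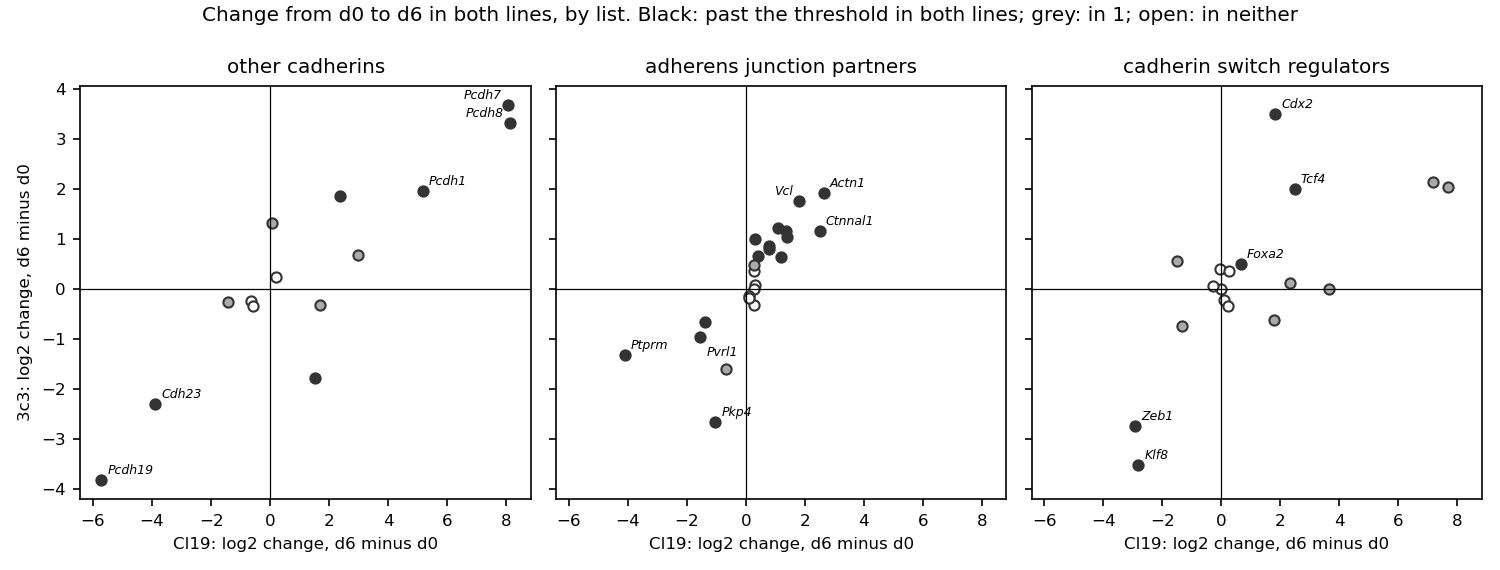
Change from d0 to d6 (log2 units) in Cl19 (horizontal axis) and 3c3 (vertical axis) for the tested genes of the 3 lists, 1 point per gene; black points were past the threshold in both lines, grey points in 1 and open points in neither. The genes named for the size of their change in both lines are labelled; *Pcdh7* and *Pcdh8* lie at the upper right and *Pcdh19* at the lower left, and *Zeb1* and *Klf8* lie low in both lines.

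Among 23 regulators known to act on *Cdh1* or on epithelial state, 18 were tested. In Cl19, 8 were higher and 4 lower (median 0.23), and in 3c3, 3 were higher and 2 lower (median 0.08), beside 52.2% and 48.2% of all tested probes. *Zeb1*, a repressor of *Cdh1*, fell by 2.93 (SE 0.25, adjusted p = 9.08e-09) in Cl19 and by 2.74 (SE 0.25, adjusted p = 3.98e-08) in 3c3, where 2 of 3 d6 arrays measured it. *Klf8*, another repressor of *Cdh1*, fell by 2.81 (at least 5.66-fold) and by 3.52 (at least 2.56-fold). *Cdx2*, an intestinal and trophoblast factor known to activate *Cdh17*, rose by 1.83 (at least 3.07-fold) in Cl19 and 3.49 in 3c3, where 2 of 3 d0 arrays measured it, a difference between the lines of -1.66 (adjusted p = 0.0219). *Tcf4*, a basic helix-loop-helix factor, rose by 2.48 and 2.00, and *Foxa2*, an endoderm factor, by 0.66 and 0.50. The *Foxa2* calls were lost with scaling by the 75th percentile (0.27 and 0.11), and without Cl19 replicate 3 (adjusted p = 0.0508) or any 3c3 replicate (adjusted p = 0.0657 to 0.147). *Snai1*, a repressor of *Cdh1* chosen after its values were seen, changed by -1.51 (adjusted p = 0.0132) in Cl19 and 0.57 (adjusted p = 0.359) in 3c3 from d0 to d6. In 3c3, *Snai1* was higher on d4 (11.99 to 12.93) than on d0 (9.58 to 10.43), by 2.55 (adjusted p = 4.12e-04), and fell by 1.98 from d4 to d6 (adjusted p = 0.0132). In Cl19 its d4 change was -0.98 (adjusted p = 0.106). *Snai2* was not well above background on d0 or d6 in either line.

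Markers of other cell types were counted in the same way, beside the 52.2% (Cl19) and 48.2% (3c3) of all tested probes past the threshold on d6. All 5 epithelial markers with a probe (*Krt8*, *Krt18*, *Krt19*, *Cldn4* and *Cldn7*) were well above background on d0 in both lines and rose in both, by 0.52 to 6.82 in Cl19 and 0.38 to 6.03 in 3c3. On the primary SMC arrays 3 of the 5 were not well above background on either array. Of 5 fibroblast markers, 3 rose and 1 fell in Cl19, and 1 rose and 1 fell in 3c3, and all 5 were well above background on the primary SMC arrays. Of 6 endothelial markers, 4 fell in Cl19, 1 rose and 1 fell in 3c3, and the defining *Pecam1*, *Kdr*, *Tek* and *Tie1* were not well above background on the primary SMC arrays. Of 3 tested Schwann cell markers, *Sox10* rose in both lines and *Mbp* fell in Cl19. Among adipocyte markers, 1 of 2 tested (*Cfd*) rose in Cl19 and both in 3c3, and of 3 tested blood cell markers *Csf1r* alone rose, in 3c3. None of 3 tested striated muscle markers had an adjusted p below 0.05 by limma in either line, nor an unadjusted p below 0.05. The part of any such cells in the changes of the cadherins was not tested.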

How the data were processed

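RNA of 26 samples was measured, in 9 groups set by the line and day that the labels give (3 arrays each, 2 of primary SMC). The authors labeled each sample with Cy3 and hybridized it alone to an Agilent rat array, read with Feature Extraction 10.1.1.1 (per the labels' processing notes). The deposited values are each feature's intensity after the software's background correction, and a deposited table of log2 values that equals the log2 scanner intensity to within 5.2e-14, without normalization between arrays.

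Log2 intensities were quantile-normalized across the arrays as in the study's methods, which removes a change shared by most genes. Outlier-flagged features were dropped and features of 1 probe averaged. The 24442 probes measured well above background throughout at least 1 group were tested in 1 limma fit (3.58.1, R 4.3.3) over the 9 groups, with p-values adjusted by Benjamini-Hochberg (threshold 0.05). The code was tested on simulated data; Python 3.11.15 read the files and drew the plots. A fold against a group with no array well above background is a bound ("at least"): each of its arrays takes the higher of its lowest signal among probes well above background and the probe's own. The higher group keeps its own values, so that the bound is strict only where all its arrays were well above background. Some probes brighter than this lowest signal were not well above background. The limit of a single probe can thus lie higher, and the bounds are approximate. The study's methods call the arrays of a time point biological replicates, but no label says that they are separate cultures. The p-values therefore measure the spread between these samples, and the number of arrays limits the precision.

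The members and the gene lists were chosen with earlier results of these data known. All members were named. Of 3 lists (other cadherins, adherens junction partners, cadherin switch regulators), the 3 genes with the highest and the 3 with the lowest mean d6 change were named among those past the threshold the same way in both lines, and for *Cdh1* and *Cdh2* the 3 most correlated genes. Positions are those of the array annotation (rn4).

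Replicate numbers mark a shared slide in the scanner files. Deviations from group means correlated by over 0.1 within slides in 18 of 18 pairs of arrays in 3c3 and 16 of 18 in Cl19 (lowest 0.06), and in all pairs of d0 with d6 (lowest 0.11). Alternatives were the 75th percentile as the scale, normexp background correction (offset 50), the deposited log2 table, testing dim probes too, a floor for dim values, averaging a gene's probes, the slide as a block, separate fits, leaving out arrays, and the area criterion of the study's methods (50000 noisy profiles, percentile 99).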

Additional observations from a re-analysis of the deposited data

Results flagged for a closer look

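The change of *Cdh3* from d0 to d6 differed between the lines in limma's test of the difference, by 2.40 log2 units (Cl19 minus 3c3, SE 0.46, adjusted p = 9.03e-04); it was larger in Cl19 on 3 of 3 slides than on any 3c3 slide. The change of *Cdh17* differed in the same test, by -4.43 (SE 0.55, adjusted p = 1.27e-05), with *Cdh17* below the measured range in all 9 later Cl19 arrays and well above background on all 3 arrays of 3c3 d6. Both differences kept their sign and their side of the threshold under every alternative run, with values of 1.29 to 3.01 for *Cdh3* and of -4.87 to -0.53 for *Cdh17*, where the smallest came with normexp background correction, whose offset shrinks the changes of dim probes. The lines were scanned on separate days, and d0 and d6 of a replicate lie on the same slide.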

How the results depend on the processing

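Of 172 alternative values of the counts of members, 166 stayed within 1.5 times the reported count. The count over time in 3c3 was 2 by the area criterion of the study's methods (6 reported; 4 in Cl19 against 6). The 2 in 3c3 were *Cdh1* and *Cdh2*, of which *Cdh2* was not among the 6 reported. The 4 in Cl19 were *Cdh1*, *Cdh2*, *Cdh3* and *Cdh17*. *Ctnna1* and *Ctnnd1* did not pass this criterion in either line. The d2 count in 3c3 was 2 in a fit of that line alone (4 reported) and 1 to 4 when a replicate was left out. The count of members differing between the lines on d0 was 1 without the array Cl19 d2 replicate 1 (0 reported), *Cdh1* (adjusted p = 0.0359), and 0 to 1 when a replicate was left out. With the slide as a replicate block, 5 members changed from d0 to d6 in Cl19 and 6 in 3c3, and over time 7 in each; in 3c3, *Cdh2* on d6 (adjusted p = 0.00411) and *Ctnna1* on d2 (adjusted p = 0.0218) then passed the threshold, and no other member's call on d2, on d6 or against primary SMC changed with the block. Of 799 alternative values of single members' changes, 4 turned in sign. *Cdh3* against primary SMC in 3c3 d6 turned to -1.30 in the authors' log2 table, and the others were not past the threshold: *Cdh3* between the lines on d0 (0.011 without 3c3 replicate 3, and -0.56 to 0.011 over the replicates left out), *Cdh17* on d6 in 3c3 (-0.11 without 3c3 replicate 3, and up to 0.56) and *Ctnnd1* between the lines on d0 (0.0056 in the authors' table). The dimmest LOC311710 probe turned to -0.12 in 3c3 without replicate 1 (up to 1.23 without another). With normexp, whose offset shrinks dim changes, *Pcdh7* and *Pcdh8* missed the threshold in 3c3 (adjusted p = 0.199 and 0.0529) and *Cdx2* in Cl19 (0.0859). The cause was not tested. No called d6 change of a member reversed under any alternative. In the authors' table, without normalization between arrays, the median d6 change over all probes was 0.10 in Cl19 and 0.09 in 3c3, and the split of all calls was 6771 higher and 5396 lower in Cl19 (5371 and 7394 reported) and 6167 and 4758 in 3c3 (4803 and 6989). Signal over background limits *Cdh2*, *Cdh11*, *Cdh13* and *Cdh17*: their changes are at best bounds wherever a group lies below the limit. Such a bound is strict only if all arrays of the higher group were well above background.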
